A study of Cavia porcellus with 12 samples.

Results

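The comparison described here was doxorubicin (DOX) against its vehicle dimethyl sulfoxide (DMSO) after 22 h, and it takes in every entry of the table deposited for that pair of groups. The table held 1335 of the 7924 entries deposited in 3 tables. Ventricular cardiomyocytes were isolated from the hearts of adult female Hartley guinea pigs by enzymatic dissociation and kept at room temperature with 10 µM DOX or with DMSO alone. The isolated cells were exposed outside the animal, and the labels do not tie a library to an animal. The labels give 12 libraries, 3 in each of 4 groups (DOX or DMSO, 1 h or 22 h). The comparison addresses which small RNAs differ after a long exposure to DOX, an anthracycline used against cancer that can injure the heart.

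MicroRNAs (miRNAs) are short RNAs that guide Argonaute proteins to messenger RNAs and lower their translation or stability. They are cut from a hairpin precursor, first by Drosha and then by Dicer, and either arm of the hairpin (5p or 3p) can supply the mature strand. Cutting is not exact, and ends can be trimmed or extended, so that an arm yields a series of isoforms (isomiRs) that differ in length, in start or in an end base. In heart muscle, miR-1, miR-133a, miR-208 and miR-499 are the best known muscle miRNAs, miR-126 marks endothelial cells, and miR-143 and miR-145 mark smooth muscle.

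The labels give 3 libraries per group, but the table held 1 library a side. Each of the 1331 means that could be restored was a whole-number combination of the reads of a pair of libraries, and the names of all 12 predicted miRNAs carried replicate number 1 on both sides. The reads of both libraries were recovered from these means, 5228156 for DOX and 4395144 for DMSO when a sequence is counted under each of its precursors. The library that this table shares with the comparison of DOX at 22 h and DOX at 1 h was taken as DOX. For the 1058 entries that the 22 h mean alone resolved, that library's reads fitted the mean of the other table in 1058, against 14.3% expected by chance for this assignment. The other assignments fitted in 116, 133 and 109. For 109 of the most abundant entries several pairs of reads fitted the means, and a deposited level chose among them. For 13 of these the neighbouring pairs kept the direction, so the direction of the others rests on that choice. The deposited level column headed "control" followed this DOX library. Directions below, captions included, rest on this identification and so on the title of the other table. With the column headings taken at their word, every direction would be turned around. The study's own list at 22 h gives most of its miRNAs the reverse direction, as set out further below. The ratio of reads is given throughout as the log2 ratio of DOX over DMSO after division by the size factors, 1.06 and 0.943. No replicate check was possible, so no p-value is given, and the 95% intervals (exact Clopper-Pearson) cover counting error alone. The sequenced entries reach down to a mean of 10.0 reads, so rarer miRNAs were not analysed here.

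Of the entries, 1320 are an isomiR, that is, a sequence with its start on a human precursor. Listed starts and ends were not set against those of known mature miRNAs. Lengths, starts and base positions are therefore those of the listed sequences and may not be those of the mature miRNA. They fall on 224 precursors and 319 arms, 155 on the 5p side and 164 on the 3p side. Both arms were listed for 95 precursors and a single arm for 129. The 1320 entries hold 1110 sequences, and 171 of these stand under several precursors, so paralogs such as mir-1-1 and mir-1-2 share most of their reads and are not separate observations.

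The sequences that carry the shifts described below are printed here, as listed in the deposited table, 5′ to 3′. The first set, from the muscle miRNAs, shows an inner base that differs in miR-1 and an extra first base in miR-133a. Capitals mark that base.
mir-1-1 3p, A form: gaatgtaaagaagtAtgtat
mir-1-1 3p, G form: gaatgtaaagaagtGtgtat
mir-133a-2 3p, later start: ggtccccttcaaccagctgt
mir-133a-2 3p, earlier start: Tggtccccttcaaccagctgt

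The second set shows some of the forms of 5 arms whose ratio depended on the last bases. Capitals mark the bases beyond the stretch that the printed forms of an arm have in common.
mir-126 3p, 18 nt: taccgtgagtaataatgc
mir-126 3p, 19 nt: taccgtgagtaataatgcG
mir-126 3p, 20 nt ending in GT: taccgtgagtaataatgcGT
mir-126 3p, 20 nt ending in GA: taccgtgagtaataatgcGA
mir-24-1 3p, 18 nt: gctcagttcagcaggaac
mir-24-1 3p, 19 nt: gctcagttcagcaggaacA
mir-24-1 3p, 20 nt: gctcagttcagcaggaacAG
mir-99b 5p, 18 nt: cccgtagaaccgaccttg
mir-99b 5p, 19 nt: cccgtagaaccgaccttgC
mir-99b 5p, 20 nt: cccgtagaaccgaccttgCG
mir-99b 5p, 21 nt ending in CGT: cccgtagaaccgaccttgCGT
mir-99b 5p, 21 nt ending in CGA: cccgtagaaccgaccttgCGA
mir-374a 5p, 19 nt: ataatacaacctgataagt
mir-374a 5p, 20 nt: ataatacaacctgataagtG
mir-374a 5p, 21 nt: ataatacaacctgataagtGT
mir-30a 5p, 17 nt: taaacatcctcgactgg
mir-30a 5p, 18 nt: taaacatcctcgactggA
mir-30a 5p, 19 nt: taaacatcctcgactggAA
mir-30a 5p, 20 nt: taaacatcctcgactggAAG
mir-30a 5p, 21 nt: taaacatcctcgactggAAGC

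The last sequence is the single listed form of mir-455 5p, the arm with the largest ratio in favour of DOX.
mir-455 5p, 20 nt: tgtgcctttggactacatcg

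The table was dominated by muscle and vascular miRNAs in both libraries. The 10 most abundant arms held 68.0% of the normalized reads with DOX and 65.4% with DMSO. Shares here and below count a sequence under each of its precursors unless stated otherwise. The markers of cardiomyocytes, 7 of 7 listed, held 36.2% with DOX and 34.1% with DMSO, so the defining miRNAs of the labelled cell type were present. Most reads of miR-1 and miR-133a are counted more than once in these shares, under paralogs, so shares of different cell types are not comparable. With each sequence counted once, the isomiR reads were 4098282 with DOX and 3465787 with DMSO. The pair of smooth muscle miRNAs, miR-143 and miR-145, held 22.1% and 19.7%, and the endothelial miR-126 held 3.25% and 4.44%. The 4 fibroblast markers were near 0.278% and 0.292%. Erythroid markers stood at 0.0330% with DOX and 0.0450% with DMSO, and leukocyte markers at 0.00705% and 0.00847%. RNA from other cells of the ventricle was thus measured in both libraries, and its part in the results was not tested.

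**Figure D1:**
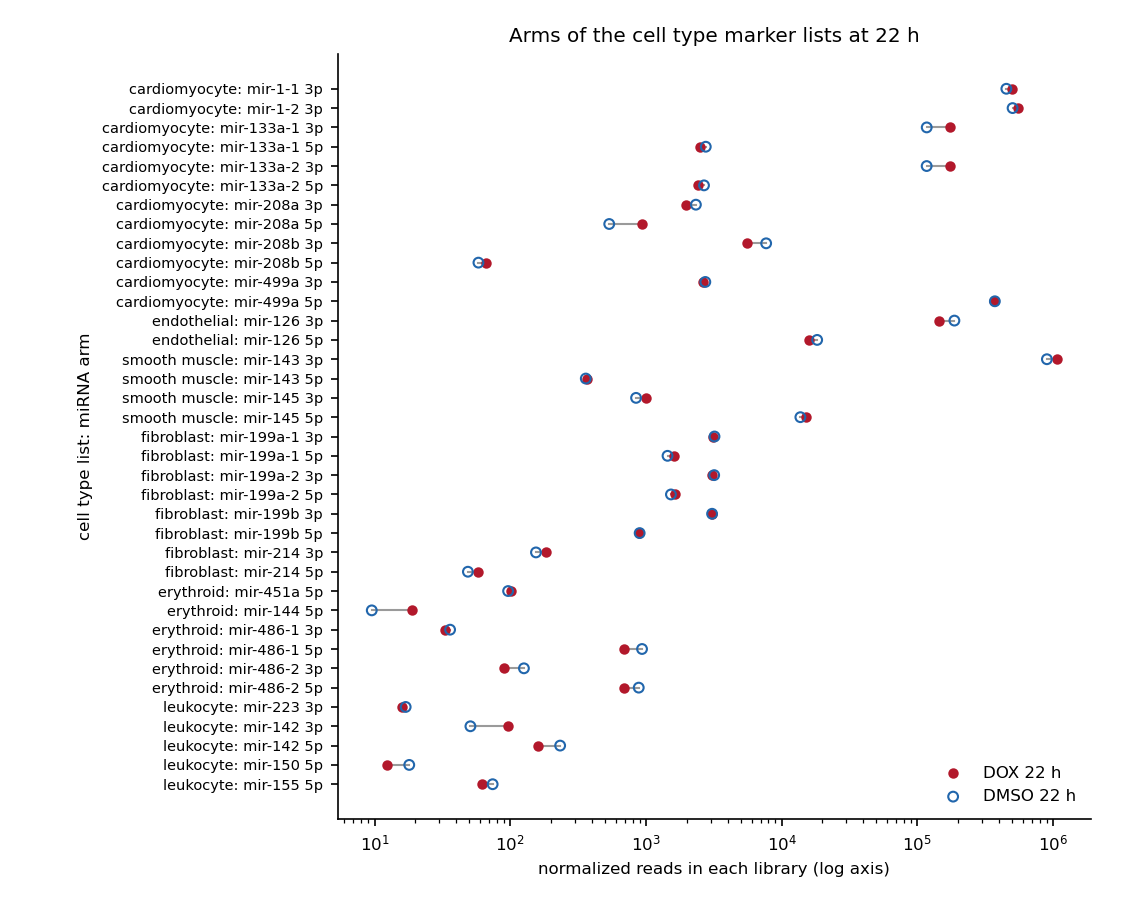
Normalized reads (log axis) of each miRNA arm in the marker lists of 6 cell types, with 1 point for the DOX library and 1 for the DMSO library at 22 h. The most abundant cardiomyocyte and smooth muscle arms stand highest in both. Endothelial miR-126 is lower with DOX, 3.25% of all normalized reads against 4.44%.

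miR-133a was the abundant muscle miRNA with the largest ratio. It is transcribed together with miR-1 and is expressed in skeletal and heart muscle. The 3p arm of mir-133a-2 had 185189 reads with DOX and 110527 with DMSO, a log2 ratio of 0.58 (interval 0.56 to 0.59). mir-133a-1, with nearly the same listed sequences, gave 0.57. mir-133b 3p, a further copy at far lower abundance, had 938 and 538 reads and a ratio of 0.63 (0.48 to 0.79). The 5p arms ran the other way, with ratios of -0.13 for mir-133a-1 and -0.15 for mir-133a-2. The level of miR-133a rested mainly on a few very abundant forms whose mean allowed several whole-number solutions. For the 20 nt form that starts later the chosen solution gave 0.66, and its neighbours gave 0.50 and 0.83. For the 21 nt form with the extra T the chosen solution gave 0.39, and its neighbours gave 0.05 and 0.74.

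miR-1, which represses growth and ion channel genes in heart muscle, differed less. The 3p arm of mir-1-2 had 581188 reads with DOX and 474982 with DMSO (log2 ratio 0.12), and that of mir-1-1 had 526078 and 427276 (0.13). mir-206 3p, a relative of miR-1 that belongs mainly to skeletal muscle, was lower with DOX, at 256 reads against 381, a ratio of -0.74 (-0.98 to -0.51). Of the miRNAs encoded within myosin heavy chain genes, mir-499a 5p had 388097 and 351557 reads and a ratio of -0.03. Its most abundant form gave -0.09 and 0.03 under the neighbouring solutions, so its side of 0 rests on the choice of solution. mir-208b 3p, from the slow myosin gene, had 5849 and 7254 reads and was lower with DOX at -0.48 (-0.53 to -0.43). The arms of mir-208a, from the fast myosin gene, went apart. Its 5p arm had 985 and 506 reads and a ratio of 0.79 (0.64 to 0.95), and its 3p arm had 2097 and 2202 reads and a ratio of -0.24 (-0.33 to -0.15).

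The vascular miRNAs went in opposite directions. mir-143 3p was the most abundant arm of the table, with 1134505 reads for DOX and 850041 for DMSO, 21.8% and 19.4% of normalized reads (log2 ratio 0.25). mir-145 5p, from the same transcript, had 16012 and 12965 reads and a ratio of 0.14 (0.10 to 0.17). mir-126 3p had 152353 and 176949 reads and was lower with DOX at -0.39 (-0.40 to -0.38), and its 5p arm stood at -0.19 (-0.22 to -0.16). In bulk RNA of this kind, fewer cells of a type and less of an RNA per cell cannot be told apart. Among blood cell miRNAs, mir-486-1 5p had 726 and 883 reads (-0.45, interval -0.60 to -0.31), and mir-451a 5p of red cells had 107 and 91 (0.06, -0.35 to 0.48). The leukocyte miRNA mir-142 was split by arm, with 102 and 48 reads on the 3p side (0.91) and 169 and 220 on the 5p side (-0.55).

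Most arms differed by less than 2-fold between the libraries. An arm was counted as past 2-fold with an absolute log2 ratio of at least 1 and at least 20 reads over both libraries. Such arms numbered 23 of 319 (7.21%), 11 of them higher with DOX (3.45%) and 12 lower (3.76%). Among single entries, 133 of 1331 were past 2-fold (9.99%), 74 higher (5.56%) and 59 lower (4.43%). The median ratio over arms was 0.02. The counting interval lay above 0 for 92 arms, below 0 for 84 and over 0 for 143.

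The ratio spread more widely where reads were few. Of arms with 20 to 50 reads, 25% were past 2-fold, against 2.99% with 200 to 1000 reads and none of the 60 arms with at least 10000 reads. The single arm past 2-fold among the 73 with 1000 to 10000 reads was mir-374a 5p. Among entries, 2 of the 220 in that range were past 2-fold, the 19 nt form of mir-374a 5p and the 20 nt form of mir-99b 5p.

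**Figure D2:**
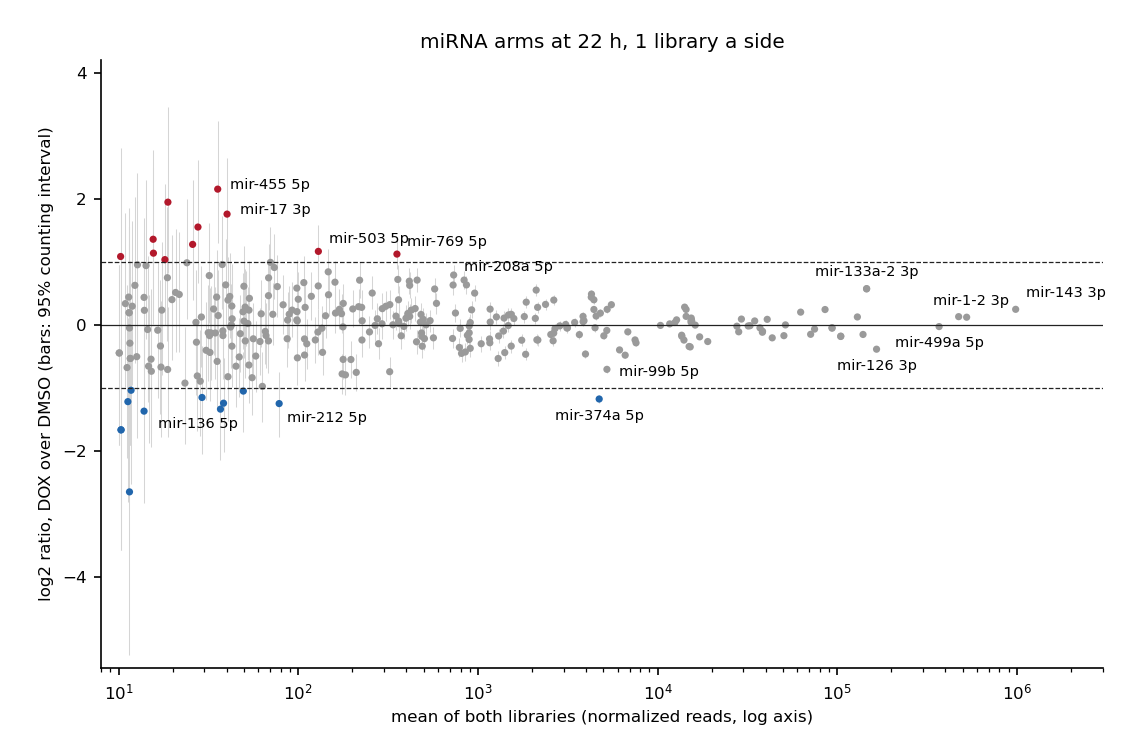
Log2 ratio of DOX over DMSO (y) against the mean of normalized reads on a log axis (x), with 1 point for each of the 319 miRNA arms and the 2-fold limits drawn as lines. The spread narrows with abundance, and mir-374a 5p at -1.17 is the most abundant arm past 2-fold.

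The arms with the largest ratios in favour of DOX were rare. mir-455 5p, from an intron of a collagen gene, had 62 reads with DOX and 12 with DMSO, a log2 ratio of 2.15 (1.29 to 3.23). mir-17 3p, the passenger strand of an oncogenic cluster, had 66 and 17 reads (1.76, interval 1.00 to 2.65), and its guide strand, mir-17 5p, had 166 and 96 (0.62, 0.25 to 1.00). mir-185 3p had 44 and 13 reads (1.55), and mir-1343 3p had 39 and 14 (1.28).

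The better counted among them were mir-503 5p and mir-769 5p. mir-503 5p, a relative of miR-16 that restrains the cell cycle, had 190 and 75 reads, a ratio of 1.17 (0.78 to 1.58). Its neighbour on the same transcript, mir-424 5p, had 1403 and 1143 reads and a ratio of 0.13 (0.01 to 0.24). mir-769 5p had 515 and 210 reads, a ratio of 1.12 (0.89 to 1.36), and each of its 6 forms was higher with DOX, by 0.81 to 2.36. The remaining arms of the 10 with the largest ratios were mir-450a-1 5p (99 and 44 reads, 0.99), mir-127 5p (53 and 24 reads, 0.96), mir-142 3p given above, and mir-106a 5p (200 and 99 reads, 0.84).

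In the other direction, mir-374a 5p stood out by its abundance. It had 3081 reads with DOX and 6186 with DMSO, a log2 ratio of -1.17 (-1.24 to -1.11). mir-136 5p, from the imprinted DLK1-DIO3 locus, had 22 and 50 reads (-1.34, interval -2.15 to -0.60). mir-212 5p, from a cluster that responds to neuronal and cardiac activity, had 49 and 104 reads (-1.25, -1.78 to -0.75). mir-495 3p, also from the DLK1-DIO3 locus, had 24 and 51 reads (-1.24). mir-664a 3p had 19 and 38 (-1.15), and mir-188 5p had 34 and 63 (-1.05). mir-744 5p, mir-26b 3p and both arms of mir-7-1 completed the 10, with ratios from -0.97 to -0.82 on fewer than 80 reads in each library.

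When arms were summed by family, 15 of 25 families had a ratio above 0, and none reached 2-fold. miR-133 had the largest ratio, 0.56, and held 7.22% of normalized reads with DOX and 5.18% with DMSO. The p53-responsive group, in which miR-34, its relative miR-449a, miR-192 and miR-194 were listed, followed at 0.51 (0.39 to 0.63) on 0.0275% of reads. Of its 6 arms, 3 had an interval above 0 and 3 an interval over 0. They were mir-34a 5p (537 and 309 reads, 0.63, interval 0.42 to 0.83), mir-194-2 5p (473 and 255 reads, 0.72, 0.50 to 0.95) and mir-449a 5p (98 and 57 reads, 0.61, 0.13 to 1.11), all 3 above 0 by their interval. mir-192 5p had 141 and 130 reads (-0.05, -0.41 to 0.30), mir-34c 5p had 27 and 17 (0.48, -0.43 to 1.47) and mir-194-1 5p, the other copy of miR-194, had 158 and 127 (0.14, -0.20 to 0.49).

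miR-140, best known from cartilage, was higher with DOX at 0.39 (0.34 to 0.44). Its 3p arm had 5332 and 3598 reads. miR-22, a muscle-enriched miRNA with a role in cardiac hypertrophy, stood at 0.28 (0.25 to 0.31), with 16468 and 12046 reads on its 3p arm. The miR-378 family, whose main member lies in a gene for a coactivator of mitochondrial metabolism, stood at 0.25. In it, 5 of 6 arms had an interval above 0. mir-378a 3p had 98438 and 73929 reads (0.24), mir-378c 5p had 3185 and 2156 (0.39) and mir-378d-2 5p had 604 and 328 (0.71).

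Families lower with DOX were less far from 0. miR-181 stood at -0.34 (-0.36 to -0.32), with 6 of 9 arms below 0 by their interval, and miR-146 and miR-155, which act in inflammatory feedback, stood at -0.30 (-0.42 to -0.17). miR-99 and miR-100, which target the mTOR kinase, stood at -0.19, with all 4 arms below 0 and 3 of them also by their interval. miR-15, miR-16, miR-195 and miR-497 stood at -0.16 as a family and were not uniform. mir-16-2 5p was at -0.28, and mir-497 5p was at 0.71 (0.57 to 0.86) with 1103 and 599 reads. The highest arm summed into that family was mir-503 5p, given above, at 1.17. miR-26 and miR-101 were at -0.15, miR-10 and miR-125 at -0.14, and the miR-23, miR-27 and miR-24 clusters at -0.08.

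Several families were close to 0 as a sum. let-7 and miR-98 stood at 0.01 (interval -0.00 to 0.01), and miR-191 with miR-425 at -0.00 (-0.04 to 0.03). The miR-17-92 and related clusters stood at -0.01 (-0.04 to 0.02), and the median of their arms was 0.15. Past 2-fold were 2 of their 17 arms toward DOX and 1 toward DMSO, against 3.45% and 3.76% of all arms. The 28 arms of the DLK1-DIO3 locus gave 0.10 (0.03 to 0.16), with 8 intervals above 0, 5 below and 15 over 0, while the median of its arms was -0.05. In this locus, 1 arm was past 2-fold toward DOX and 3 toward DMSO, beside the same shares of all arms. For neither group were these few calls tested against those shares. miR-21, a stress-responsive cardiac miRNA, stood at 0.09 (0.07 to 0.11). miR-199 and miR-214, the fibroblast miRNAs, stood at 0.01 (-0.02 to 0.05). miR-221 and miR-222 stood at 0.18 on few reads, with an interval from -0.18 to 0.54.

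**Figure D3:**
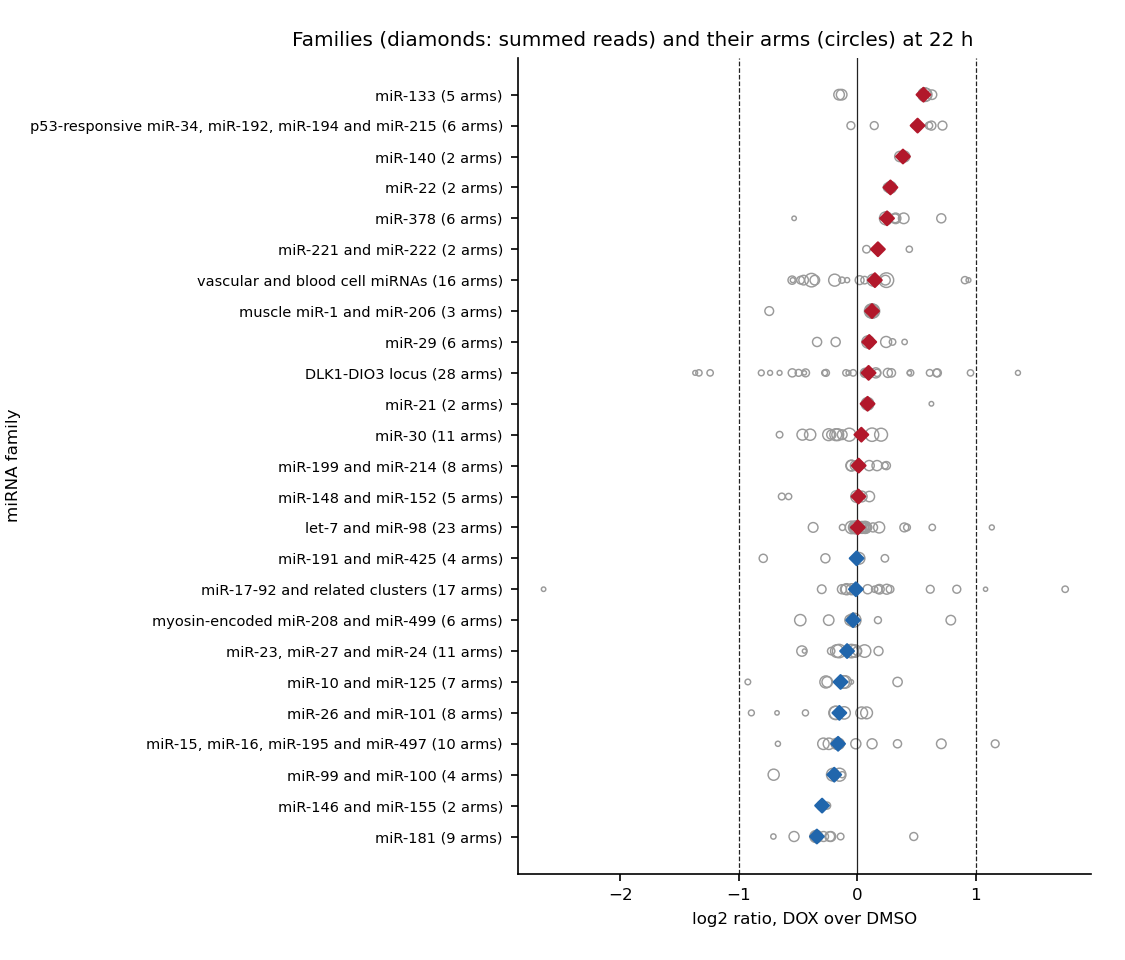
Log2 ratio of DOX over DMSO (x) for 25 miRNA families (y), with 1 library a side. Diamonds are the summed reads of a family and open circles its single arms. Among the diamonds, miR-133 stands highest at 0.56 and miR-181 lowest at -0.34.

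By arm, the 3p side held 67.8% of normalized reads with DOX and 64.7% with DMSO. Its summed ratio was 0.15, and that of the 5p side was -0.05, while the median over entries was 0.02 on the 3p side and -0.01 on the 5p side. By start, 96.4% of normalized reads in each library began at the start of the most abundant form of the arm. Forms that began 1 base earlier had a summed ratio of 0.35 and a median over 62 entries of -0.01. Of their 117359 reads with DOX, 56036 and 56167 were the form of miR-133a with the extra T, listed under both precursors. Forms that began 1 base later had a summed ratio of -0.30 and a median over 156 entries of -0.01. By last base, the summed ratio was 0.23 for forms ending in C, 0.11 in T, -0.02 in A and -0.18 in G, and the medians over entries were 0.01, -0.00, 0.08 and -0.09. The 19 nt form of mir-143 3p alone held 367757 of the 776386 reads ending in C with DOX. The summed ratios thus follow a few abundant forms.

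Length differed little between the libraries as a whole. The listed forms ran from 12 to 21 nt, and the mean length weighted by reads was 19.7 nt in both libraries, 0.0119 nt longer with DOX. These are lengths of the listed sequences, and whether bases are missing at their ends was not tested. The 20 nt forms held 59.1% of normalized reads with DOX and 58.7% with DMSO. The 17 nt forms held 0.855% and 1.02%, a ratio of -0.18. Of 129 arms with several lengths and at least 1000 reads, 70 were longer with DOX and 59 with DMSO, and 19 differed by at least 0.1 nt, 9 of them longer with DOX.

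Forms of the same arm could also differ in their ratio. In 78 arms with at least 2 forms of 1000 or more reads, the median gap between the highest and the lowest ratio was 0.34. The counting intervals of those 2 forms lay apart in 55 arms, and the gap reached 0.5 in 25 arms and 1 in 7. The arms described next were chosen after their values were seen.

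mir-374a 5p owed its low ratio mainly to its shortest form. The 19 nt form had 1486 reads with DOX and 4350 with DMSO, a log2 ratio of -1.72 (-1.80 to -1.63). The 20 nt form had 1410 and 1581 reads (-0.33), and the 21 nt form had 185 and 255 (-0.63). mir-99b 5p showed a similar single form. Its 20 nt form, ending in CG, had 2117 and 3965 reads and a ratio of -1.07 (interval -1.15 to -0.998). Its 18, 19 and 21 nt forms stood between -0.32 and -0.10, and a 17 nt form with 32 and 24 reads stood at 0.24. The means of these forms of mir-374a and mir-99b allowed 1 solution each.

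In mir-126 3p, the lowest abundant forms ended in CG. The 19 nt form printed above had 20550 and 30371 reads, a ratio of -0.73, with -1.43 and -0.11 under the neighbouring solutions. The 20 nt form that adds a T had 4886 and 4810 reads (-0.15), and the 20 nt form that adds an A had 3207 and 2502 (0.19). The start 1 base earlier gave a 20 nt form with the same end, 83139 and 100144 reads and a ratio of -0.44. mir-24-1 3p went the opposite way at its short end. Its 18 nt form had 18647 and 10191 reads (0.70), 19.1% of the arm with DOX and 11.3% with DMSO, while the 19 nt form stood at -0.22 and the 20 nt form at -0.17. The neighbouring solutions for that 18 nt form were -0.42 and 2.10, so its direction rests on the choice of solution.

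Both the miR-30 and the miR-29 family are abundant in heart and target messenger RNAs of matrix proteins. The miR-30 family as a whole stood at 0.04, with 2 of 11 arms above 0 by their interval and 8 below, and the miR-29 family at 0.10. At the most abundant start of 4 of their arms, mir-30a 5p, mir-30e 5p, mir-29a 3p and mir-29c 3p, forms were summed by length. These sums were lower with DOX at 17 or 18 nt and higher at 19 to 21 nt. Single forms could depart from this. The 20 nt form of mir-30e 5p ending in T had 1062 and 994 reads (-0.07), and the 21 nt form of mir-30a 5p ending in AAGT had 5230 and 4634 (0.005). The 20 nt forms ending in A stood at 0.40 in mir-30a 5p and 0.51 in mir-30e 5p. In mir-30a 5p, the 17 nt form had 2948 and 3330 reads (-0.35) and the 18 nt form 12424 and 16451 (-0.57). The 19 nt form had 32463 and 24899 (0.21). Of the forms printed above, that of 20 nt had 39748 and 29480 (0.26) and that of 21 nt had 41628 and 31567 (0.23). The arm as a whole stood at 0.13. mir-30e 5p had ratios of -0.60 at 17 nt and -0.61 at 18 nt, where 1 solution was possible, and of 0.16, 0.39 and 0.40 at 19, 20 and 21 nt. In mir-30d 5p the 18 nt form stood at -0.46 and the 19 to 21 nt forms between 0.02 and 0.07, close to 0. Other members did not show the split. The forms with at least 1000 reads stood between -0.21 and -0.16 in mir-30c-1 5p and between -0.19 and -0.11 in mir-30c-2 5p. The most abundant form of mir-29b-1 3p stood at -0.48 and that of mir-29b-2 3p at -0.63.

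At its most abundant start, mir-29a 3p had 1750 and 3072 reads at 18 nt (-0.98), which was 5.46% of the arm with DOX and 11.5% with DMSO. Its 19 nt form stood at 0.19, its 20 nt form at 0.30 and its 21 nt forms at 0.22. At the start 1 base earlier, the 19 nt form had 193 and 312 reads (-0.86, interval -1.13 to -0.60) and the 20 nt form 1462 and 1439 (-0.15, -0.25 to -0.04), so the longer forms were lower there. mir-29c 3p stood at -0.82 for 17 nt and between 0.25 and 0.54 for 19 to 21 nt. The abundant 19 to 21 nt forms of mir-30a 5p allowed 10 to 14 solutions, and their neighbours fell on both sides of 0, as did those of its 18 nt form (-1.86 and 0.51). The forms of mir-29c 3p and the 17 and 18 nt forms of mir-30e 5p and mir-29a 3p allowed 1 solution.

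**Figure D4:**
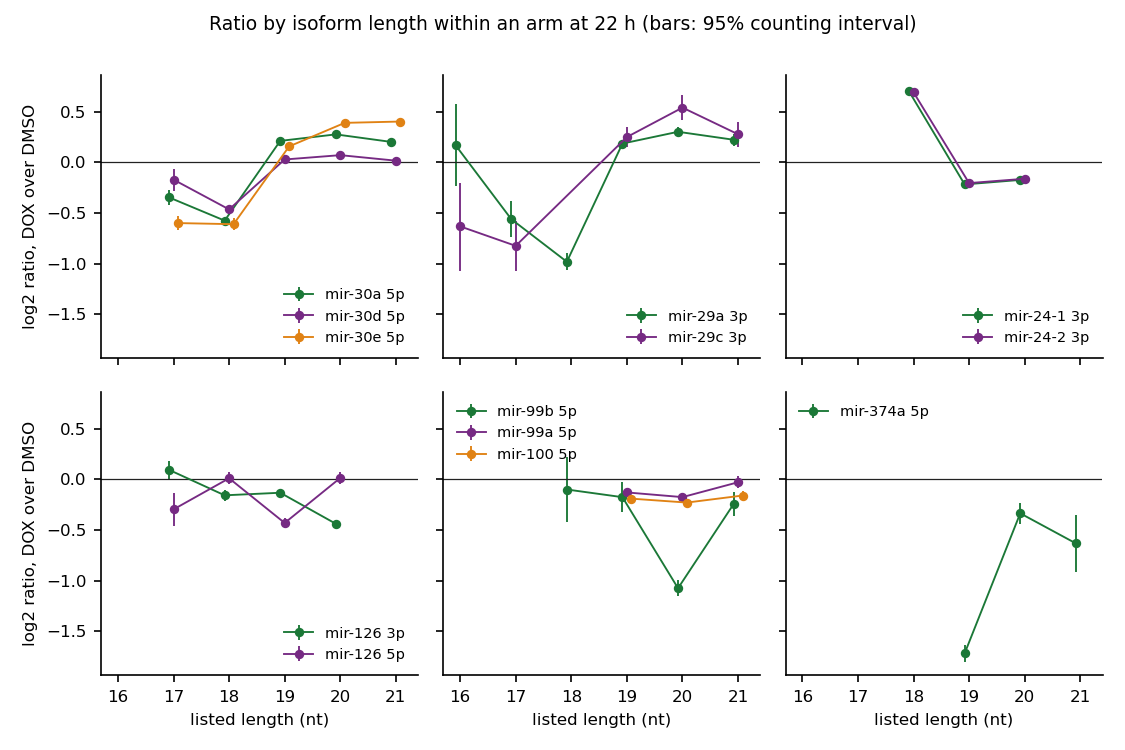
Log2 ratio of DOX over DMSO (y) against the length of the form in nt (x) in 6 panels, each with 1 or more related miRNA arms. Each arm has 1 point per length and 95% counting intervals as bars, at the most abundant start and with at least 100 reads. The 18 nt forms of mir-30a 5p (-0.57) and mir-29a 3p (-0.98) lie below 0 and their 19 to 21 nt forms above it.

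Forms that differed in a base were also listed. Within arms, 186 pairs of forms of the same start and length differed in 1 base, 153 of them at the last base and 33 at an inner base, in 28 arms. Of the inner pairs, 11 were A and G and 5 were C and T. In miR-1 the change was A15G, counted from 1 at the 5′ end of the listed sequence. The A form of mir-1-1 3p had 293084 and 218333 reads (0.26), and the G form had 217560 and 195439 (-0.01). The G form was thus 42.6% of the pair with DOX (42.5 to 42.7) and 47.2% with DMSO (47.1 to 47.4), by exact Clopper-Pearson intervals. In mir-16-2 5p the pair C19T had 30.3% of its reads in the T form with DOX (27.1 to 33.7) and 44.1% with DMSO (41.0 to 47.2). The A form of mir-1-1 gave 0.19 and 0.32 under the neighbouring solutions and the G form -0.09 and 0.06. Reads were aligned to human sequences, and whether a listed base is that of the guinea pig was not tested.

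Among the miRNAs that the study listed or followed at 22 h, 3 were described above as higher with DOX, miR-133a-3p, miR-34a-5p and miR-378c-5p, and 2 as lower, miR-99b-5p and miR-136-5p, on arm sums and on the library identification given above. The study's own list gives miR-133a-3p and miR-378c-5p as lower with DOX, and miR-136-5p and miR-425-5p as higher. For each of these, that is the reverse of the direction here. The list also gives miR-24-1-5p as lower, where the arm sum here was 0.18 with an interval over 0, and the most abundant form 0.79. It gives miR-99b-5p as lower, from a form whose sequence differs from those printed above. Its RT-qPCR at 22 h had miR-133a-3p lower and miR-34a-5p higher. Which naming of the libraries is right was not tested. The exact forms that the study lists can be rare. For mir-133a-1 3p that form is 21 nt long with 23 reads for DOX and 7 for DMSO (1.48, interval 0.28 to 3.01), and for mir-378c 5p it is 19 nt long with 18 and 6 (1.34, 0.02 to 3.04). mir-99b 5p had 4215 and 6109 reads, a ratio of -0.70 (-0.76 to -0.65). Both forms of mir-34a 5p were higher with DOX, with 333 and 190 reads at 20 nt and 204 and 119 at 21 nt. The low ratio of mir-136 5p came from a form with 5 and 38 reads (-2.98), and its other form had 17 and 12 (0.32). mir-425 5p had 438 and 469 reads, a ratio of -0.27, but 3 of its 4 forms stood between -0.19 and 0.23, and the fourth, a 21 nt form, had 13 and 63 reads (-2.40). mir-181a-1 5p and mir-181a-2 5p stood at -0.34 and -0.35 on 14019 and 15801 reads for the former. mir-24-1 5p had 459 and 360 reads (0.18, interval -0.02 to 0.38) and mir-27a 5p had 85 and 88 (-0.22, -0.67 to 0.23), so for neither arm sum was a difference detectable at this depth. The 10 forms of mir-24-1 5p ran from -0.74 to 0.79, with its most abundant form at 0.79. The 2 forms of mir-27a 5p stood at -0.48 and 0.08.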

How the data were processed

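The authors sequenced small RNA (TruSeq library, HiSeq 2500), aligned it to human sequences with BaseSpace Small RNA 1.0 (hg19 in the submitters' processing notes, with FastQC and MultiQC) and deposited, for each entry, a DESeq2 mean over both sides, a signal of reads divided by size factors. The decimal mark lost from the means was placed by the mean that the third table gives for that entry. Each mean was solved for whole read counts of the 2 libraries, with the mean of the third table as a further condition. For 109 entries with several solutions the authors' deposited level column headed "control" (a signal) chose among them. The chosen solution lay at most 0.00114 in log2 from the ratio predicted from that level, and the next solution at least 0.0340. On simulated data, 1219 of 1219 entries with 1 solution and 112 of 112 with several were recovered rightly. The simulated levels were made without noise, by a rule of nearly the same form as the correction fitted to choose among solutions. The simulation therefore cannot show that the choice is right for the deposited levels. The table also held columns of the authors' fold changes and p-values, and these columns were not used. The level column, taken with the mean over both sides, nevertheless fixes a ratio of the 2 sides. The ratios of the 109 entries with several solutions are therefore not independent of the authors' own values. Entries with 1 solution, which needed no such choice, held 9.54% of the summed mean.

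Entries were grouped by precursor and by start, with a start under 42 on the precursor taken as the 5p arm and any other as the 3p arm, and reads were summed per arm and family. Ratios used a pseudocount of 0.5 in reads and a minimum of 20 reads for calls past 2-fold. Members and lists were chosen with earlier results of these data known. Arms were named by rule: the 20 with the highest mean, the 10 with the largest ratio each way among arms with at least 50 reads, the 2 to 4 most abundant of each family, and the miRNAs the study lists at 22 h. Other arms named beside them were chosen after their values were seen. Alternatives covered the fold limit, the read minimum, the scaling, the pseudocount and the way entries were combined. Python 3.11.15, numpy 2.4.6, pandas 2.3.3, scipy 1.17.1 and matplotlib 3.10.9 were used.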

Additional observations from a re-analysis of the deposited data

How the results depend on the processing

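With 1 library a side, no leave-one-out was run. No paired analysis was possible because the table holds 1 library on each side. Entries past 2-fold numbered 133, and 215 with a log2 limit of 0.8, 42 at 3-fold and 52 with at least 50 reads. Arms past 2-fold numbered 23, and 36, 6 and 12 under the same settings. Scaling by total reads moved every ratio by -0.08, which gave 136 entries and 24 arms.

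The mean length with DOX and with DMSO was 19.7 nt. It was 19.68 and 19.67 nt with each sequence counted once, 19.2 nt in both with each entry counted once, 19.73 and 19.71 nt with at least 50 reads, and 19.65 and 19.61 nt in entries with 1 solution. The 3p share was 65.5% and 62.8% with each sequence once and 52.1% in both with each entry once. The share at the main start was 96.99% and 96.78% with each sequence once, 81.7% in both with each entry once, and 96.5% in both with at least 50 reads.

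Families with a ratio above 0 numbered 15 of 25, and 11 to 15 under the alternatives. Restricting to entries with 1 solution, an alternative chosen after seeing the data, leaves 9.54% of the summed mean and drops the most abundant forms of miR-1, miR-133a, miR-143, miR-499a and miR-30a. It gave -0.02 for miR-133 in place of 0.56, with 0.40 for mir-133a-2 3p and 0.63 for mir-133a-1 3p. mir-143 3p went from 0.25 to -0.74 and mir-30e 5p from 0.20 to -0.35. Of the 109 entries with several solutions, 13 kept their sign in the neighbouring solutions.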

Other observations

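Entries under predicted precursors or under a mature name alone were also listed at 22 h. Of the 8 predicted entries with recovered reads, 6 had the sequence of an isomiR already listed under a known precursor. The abundant predicted miRNA 269 repeated forms of mir-21 5p. Its 21 nt entry had 14211 reads with DOX and 9945 with DMSO (log2 ratio 0.35), against 14215 and 10202 under mir-21 (0.31), and its 19 nt entry had 6960 and 6389 (-0.05), against 6694 and 6147 (-0.05). The other predicted entries had at most 100 reads in a library, and their intervals included 0. Entries that carry a mature name alone were miR-143-3p with 29 and 39 reads, miR-378d with 19 and 10 and miR-101-3p with 12 and 10, and their intervals also included 0.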
